A study of Mus musculus with 8 samples.

Results

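The nuclear genes of oxidative phosphorylation were taken from a gene expression table of 3 populations of mouse skeletal muscle by their symbols. Rows whose names begin with Nduf, Uqcr or Atp5, or with Cox and a subunit number from 4 to 8, were kept together with Sdha, Sdhb, Sdhc, Sdhd, Cyc1 and Cycs, and pseudogene rows were left out. This gave 92 of 36048 genes, and all 92 reached the level needed for testing, an FPKM (fragments counted per kilobase of transcript and scaled to library size) of at least 1 in at least 2 libraries. They comprise 36 genes of complex I, 7 complex I assembly factors, 4 genes of complex II, 9 of complex III, the cytochrome c gene, 18 of complex IV, 15 of complex V and 2 genes with an Atp5 name that are not subunits of the enzyme (Atp5s and Atp5sl). Ndufa4 and Ndufa4l2 were counted with complex IV, where their proteins are now placed.

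RNA sequencing covered single muscle fibres (SMF, n = 3), satellite cells (SC, n = 2, numbered 1 and 3) and endothelial cells (EC, n = 3). Each fibre library held 100 intact fibres of the extensor digitorum longus, a fast muscle, chosen by hand after standing for 3 h, and each SC or EC library about 100000 cells sorted by flow cytometry from muscles of the hindlimb. The labels give no strain, age, treatment or genotype, and do not say whether replicates came from separate animals. The p-values thus rest on the scatter of these libraries alone, part or all of which may be technical, and population, isolation and muscle of origin cannot be told apart.

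Oxidative phosphorylation takes place in the inner mitochondrial membrane. Complexes I and II pass electrons from NADH and succinate to ubiquinone, complex III passes them on to cytochrome c, and complex IV (cytochrome c oxidase) hands them to oxygen, while complex V (ATP synthase) uses the proton gradient to make ATP. Most subunits are encoded in the nucleus and the rest in the mitochondrial genome. Several small subunits of complex IV exist as pairs of genes, of which Cox6a2, Cox7a1 and Cox8b are known as the heart and muscle forms and Cox6a1, Cox7a2 and Cox8a as the forms of liver and most other tissues.

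The promoters of these paired genes, except Cox6a2, are shown because the pairs carry the sharpest contrast among the members. Each is the 250 bases before an annotated start in RefSeq, build GRCm38.p6 (the assembly also called mm10), written 5′ to 3′ on the strand of the gene. They lie at chr7:140900447-140900696 (minus strand) for Cox8b, chr19:7217617-7217866 (minus) for Cox8a, chr7:30183921-30184170 (plus) for Cox7a1, chr9:79759854-79760103 (minus) for Cox7a2 and chr5:115348959-115349208 (minus) for Cox6a1. The Cox7a2 stretch lies inside the listed span of its gene (chr9:79755241-79771422), before an internal start. The others lie directly before the 5′ end of the span. Capitals mark matches, on either strand, to CAGCTG (E-box), a pair of NRF1 half-sites (GCGC repeated after 2 bases of any kind), CCGGAA (ETS core), GGGCGG (GC box) or CCAAT.
Cox8b: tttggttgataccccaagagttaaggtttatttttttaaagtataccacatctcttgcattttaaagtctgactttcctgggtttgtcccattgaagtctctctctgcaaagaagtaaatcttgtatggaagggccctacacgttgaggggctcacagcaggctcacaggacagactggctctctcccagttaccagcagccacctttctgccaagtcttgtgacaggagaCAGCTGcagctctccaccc
Cox8a: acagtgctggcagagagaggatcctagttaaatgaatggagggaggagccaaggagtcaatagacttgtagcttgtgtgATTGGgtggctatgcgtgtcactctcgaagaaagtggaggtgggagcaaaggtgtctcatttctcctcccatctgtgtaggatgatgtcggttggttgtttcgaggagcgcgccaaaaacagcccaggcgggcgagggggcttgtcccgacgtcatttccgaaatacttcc
Cox7a1: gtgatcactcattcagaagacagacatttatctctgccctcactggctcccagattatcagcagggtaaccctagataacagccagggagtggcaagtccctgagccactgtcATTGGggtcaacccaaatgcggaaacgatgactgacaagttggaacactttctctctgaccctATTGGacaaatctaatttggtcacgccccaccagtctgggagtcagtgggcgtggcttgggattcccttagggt
Cox7a2: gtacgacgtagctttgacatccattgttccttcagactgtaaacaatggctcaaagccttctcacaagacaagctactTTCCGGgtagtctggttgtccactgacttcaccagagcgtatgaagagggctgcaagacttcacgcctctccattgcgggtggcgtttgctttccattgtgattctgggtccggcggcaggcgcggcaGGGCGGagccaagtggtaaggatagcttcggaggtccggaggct
Cox6a1: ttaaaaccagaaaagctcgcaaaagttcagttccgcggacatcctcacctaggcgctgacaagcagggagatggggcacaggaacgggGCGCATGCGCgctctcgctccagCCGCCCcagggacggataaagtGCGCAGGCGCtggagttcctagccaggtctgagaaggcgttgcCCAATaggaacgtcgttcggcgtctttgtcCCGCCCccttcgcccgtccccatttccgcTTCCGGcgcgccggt
Of the muscle forms printed, Cox8b held 1 E-box and none of the other motifs, and Cox7a1 held 2 CCAAT boxes. Among the common forms, Cox6a1 held 2 NRF1 pairs, 1 ETS core, 2 GC boxes and 1 CCAAT box, Cox7a2 held 1 ETS core and 1 GC box, and Cox8a held 1 CCAAT box. RefSeq promoters were matched for 73 members, and their median GC content was 57.2%, against 55.6% over 17492 protein-coding genes. The NRF1 pair occurred in 16 of the 73 promoters (21.9%), against 7.72% of coding genes, and the ETS core in 21 (28.8%), against 17.0%. NRF1 and the ETS factor GABP (also called NRF2) are the regulators for which respiratory genes are best known. The GC box occurred in 27 members (37.0%, against 45.8% of coding genes), CCAAT in 32 (43.8%, against 39.5%), TATAAA in 5 (6.85%, against 13.7%) and the E-box in 6 (8.22%, against 13.8%). These are letter matches, some of which can overlap, and no test was made on them.

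The libraries differed in depth and in how many genes they listed. The ratio of coverage to FPKM over the listed transcripts implies 525 to 581 Mb of aligned sequence in SMF, 278 and 313 Mb in SC and 298 to 368 Mb in EC. Taking 100 bases for a fragment, an assumption from the read lengths in the labels, a single fragment on 1 kb of transcript then equals about 0.172 to 0.190 FPKM in SMF, 0.320 and 0.360 in SC and 0.272 to 0.336 in EC. Genes at 1 FPKM or more numbered 7960 to 8116 in SMF, 13294 and 16451 in SC and 12640 to 14314 in EC. Fast fibre, satellite cell and endothelial markers followed the labels. The summed level of 10 fast fibre genes was 35021 to 38205 FPKM in SMF, 203 and 314 in SC and 12.3 to 20.8 in EC. That of 8 satellite cell genes was 16.3 to 21.3 in SMF, 780 and 819 in SC and 10.1 to 22.7 in EC. For 8 endothelial genes it was 2.88 to 3.40 in SMF, 24.5 and 17.4 in SC and 1031 to 1161 in EC. Markers of other cells were present too: 6 fibro-adipogenic genes summed to 22.1 to 43.5 in SMF, 256 and 252 in SC and 17.6 to 83.5 in EC. For 8 slow fibre genes the sum was 168 to 197 in SMF, 50.0 and 60.7 in SC and 22.3 to 25.8 in EC. Of the 5 that were tested, 1 was higher and 4 were lower in SMF than in SC. Over all genes tested, 8.57% were higher and 56.5% lower. Since FPKM is a share of each library, other scalings were also applied, and these raised SMF against the cells, moving the median log2 difference over all 16700 genes tested from -0.93 to between -0.44 and -0.21 for SMF minus SC and from -0.85 to between -0.55 and -0.20 for SMF minus EC. A level in bulk RNA cannot tell fewer cells of a type from less RNA per cell.

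Summed over the members, fibres held the most oxidative phosphorylation RNA. The 92 genes came to 5692, 5404 and 6337 FPKM in SMF, 1421 and 1590 FPKM in SC and 1098, 1015 and 1138 FPKM in EC, so that the groups did not overlap. As a share of all FPKM of a library this was 0.388% to 0.429% in SMF, 0.0986% and 0.140% in SC and 0.0731% to 0.0887% in EC. The mean of SMF was 3.86 times that of SC and 5.36 times that of EC, and the mean of SC was 1.39 times that of EC. Under the other scalings these ratios were 7.98 to 11.7 for SMF over SC, 8.64 to 14.3 for SMF over EC and 1.08 to 1.40 for SC over EC.

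**Figure D1:**
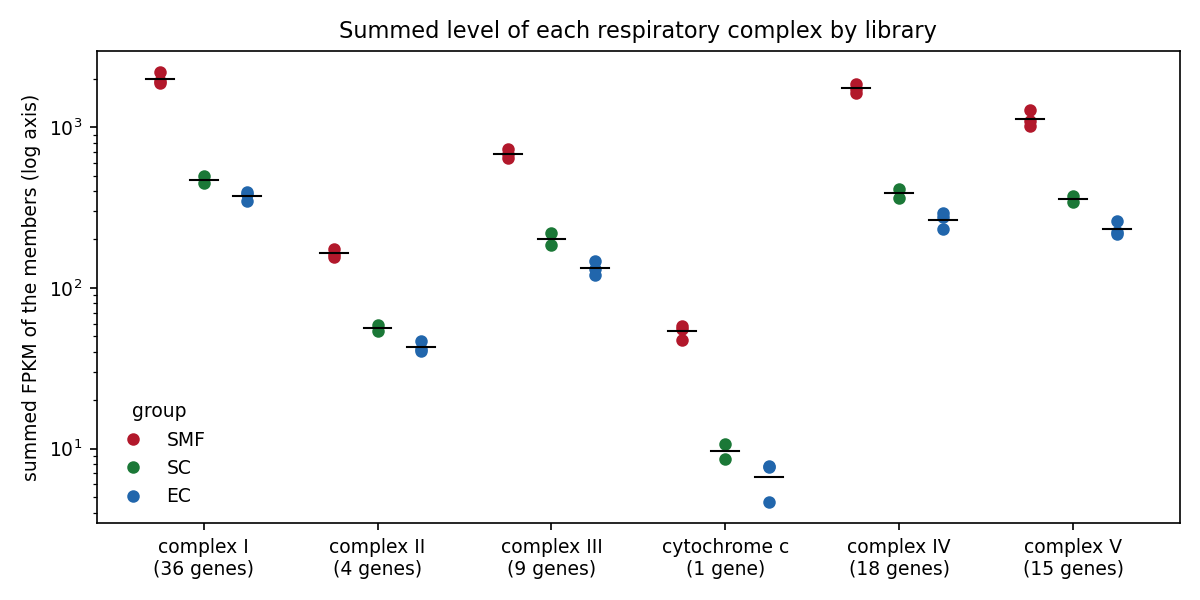
Summed FPKM (log axis) of the nuclear members of each respiratory complex and of cytochrome c, with 1 point for each library and a bar at the mean of its group (SMF n = 3, SC n = 2, EC n = 3). In every complex the 3 SMF points lie above all SC and EC points, for example 1627 to 1866 FPKM in SMF for complex IV, against 363 and 411 in SC and 234 to 290 in EC.

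Each complex showed the same order. Complex I summed to 1933, 1878 and 2197 FPKM in SMF, 446 and 495 in SC and 396, 348 and 381 in EC. Complex II, the succinate dehydrogenase, summed to 164, 155 and 173 in SMF, 53.6 and 59.1 in SC and 46.5, 40.2 and 41.8 in EC, and had the smallest ratio of SMF over SC (2.91) and over EC (3.83) among the complexes. Complex III summed to 678, 639 and 729 in SMF, 184 and 218 in SC and 120, 147 and 130 in EC. The ratio of SMF was highest for cytochrome c, at 5.58 over SC and 8.01 over EC. Complex V summed to 1092, 1019 and 1271 in SMF, 342 and 371 in SC and 224, 217 and 259 in EC. Exact two-sided permutation tests of these sums gave p = 0.1 for SMF against EC and p = 0.2 for each comparison with SC (adjusted p = 0.225 over 27 tests), which are the smallest values that 3 against 3 and 3 against 2 libraries allow. The order between SC and EC was not kept in every scaling: the log2 ratio of SC over EC for complex I was 0.33, and -0.030 after scaling without the most abundant genes.

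Tested gene by gene with limma on log2(FPKM + 1), 78 of the 92 members were higher in SMF than in SC and 6 lower, while 8 were not called. Over all 16700 genes tested, 8.57% were higher and 56.5% lower. Against EC, 80 members were higher in SMF, 6 lower and 6 not called, with a background of 10.8% higher and 55.5% lower. The median log2 difference of the members was 1.73 for SMF minus SC and 2.12 for SMF minus EC, beside -0.93 and -0.85 over all genes tested. The libraries of the groups compared did not overlap for 85 members against SC and for 89 against EC. The share without overlap over all genes tested was not counted, so these numbers have no background. Both comparisons share the SMF libraries. Under each of 3 other scalings all 78 and all 80 were again called, but these scalings raise SMF throughout: higher calls over all genes tested numbered 2611 to 3735 against SC and 2697 to 4116 against EC, beside 1431 and 1811 on the deposited scale. Leaving out 1 library at a time removed 13 of the 78 (Atp5d, Atp5h, Atp5l, Cox7a2, Cox7c, Cyc1, Ndufa1, Ndufa7, Ndufaf4, Ndufb2, Ndufb3, Sdhc and Uqcrq) and 2 of the 80 (Atp5s and Ndufa1). At least 1 further setting removed Cox4i1, Ndufa11, Ndufc1, Ndufc2 and Sdha against SC and Ndufc2 against EC.

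**Figure D2:**
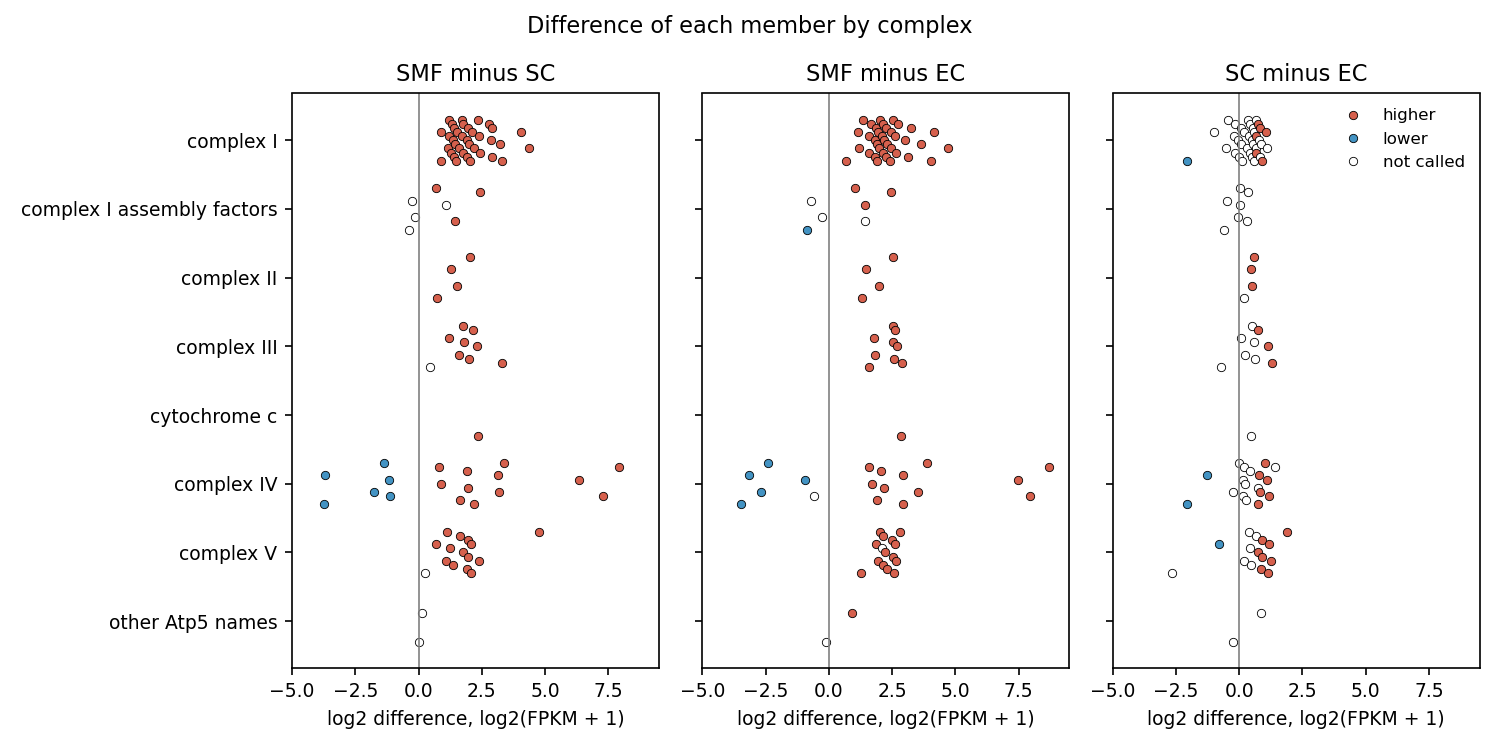
Difference of each of the 92 members on the log2(FPKM + 1) scale, in rows by complex, for SMF minus SC (left), SMF minus EC (middle) and SC minus EC (right). Filled points are called higher (red) or lower (blue) and open points are not called. In the first 2 panels all 36 points of complex I lie right of 0, while complex IV runs from -3.72 to 7.93 and from -3.48 to 8.69, and the values of genes listed at 0 in a group depend on the added 1.

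All 36 complex I genes were higher in SMF than in SC and in EC. Their log2 differences ran from 0.87 to 4.35 against SC and from 0.69 to 4.71 against EC. Ndufb9, an accessory subunit of the membrane arm, was the most abundant complex I gene in fibres, with 336, 342 and 392 FPKM in SMF, 51.8 and 51.0 in SC and 41.0, 34.6 and 43.2 in EC (log2 difference 2.77, SE 0.18, adjusted p = 1.01e-05 against SC and 3.14, SE 0.16, adjusted p = 1.49e-06 against EC). In SC and EC the most abundant was Ndufa6, another accessory subunit, with 190, 191 and 207 FPKM in SMF, 75.2 and 71.1 in SC and 49.8, 69.5 and 37.3 in EC. Ndufb10, another accessory subunit of the membrane arm, had 79.3, 76.6 and 101 FPKM in SMF, 30.1 and 31.3 in SC and 19.8, 15.4 and 22.4 in EC. The lowest in SMF was Ndufab1, the mitochondrial acyl carrier protein, at 6.01 to 6.54 FPKM in SMF, 0.649 and 1.86 in SC and 0.495 to 2.13 in EC.

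The core subunits of complex I, which bind the flavin and the iron-sulfur clusters, lay within this range. Ndufv1, which binds NADH, had 22.9, 25.5 and 33.0 FPKM in SMF, 9.72 and 10.9 in SC and 7.95, 4.99 and 3.88 in EC. Its partner Ndufv2 had 90.4, 71.1 and 88.4 in SMF, 21.0 and 19.6 in SC and 13.1, 12.2 and 10.1 in EC, and the groups did not overlap for either gene. Ndufs1, the largest subunit of the matrix arm, had 17.0, 18.1 and 17.4 in SMF, 4.08 and 6.23 in SC and 3.46, 2.30 and 3.50 in EC. The span of Ndufs1 overlaps Eef1b2, a translation factor gene on the other strand that had 19.0 to 23.6 FPKM in SMF, 143 and 146 in SC and 23.5 to 55.0 in EC. Whether strand was used in counting is not given in the sources used here, and 20 members overlap a gene on the opposite strand.

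Some complex I genes varied strongly between libraries. Ndufb4 had 54.5, 27.9 and 82.2 FPKM in SMF, 1.19 and 1.88 in SC, and in EC was listed at 0 in replicates 1 and 2 and at 6.39 in replicate 3 (log2 difference 4.35, SE 0.87, adjusted p = 0.00294 against SC and 4.71, SE 0.78, adjusted p = 0.00101 against EC). Ndufa12 had 67.7, 67.0 and 65.8 in SMF, 3.05 and 10.9 in SC and 2.22, 5.38 and 1.79 in EC (3.28, SE 0.49, adjusted p = 0.000624, and 4.14, SE 0.44, adjusted p = 8.24e-05). Ndufa1, a subunit that cells need for complex I, had 50.0, 59.2 and 60.3 in SMF, was listed at 0 in SC replicate 1 and EC replicate 2, and stood at 10.7 in SC replicate 3 and at 8.88 and 9.25 in the other EC libraries. A listed 0 is thus not taken as absence here, and 14 members have at least 1 library at 0.

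The assembly factors of complex I help to build the enzyme without being part of it. Their counts on the deposited scale differed from those of the subunits. Of 7, 3 were higher in SMF than in SC and 4 not called, and against EC 3 were higher, 1 lower and 3 not called. Over all genes tested, 8.57% were higher and 56.5% lower against SC, and 10.8% and 55.5% against EC. Ndufaf1 had 6.06, 7.42 and 8.12 FPKM in SMF, 1.21 and 3.06 in SC and 1.57, 2.35 and 2.31 in EC (log2 difference 1.45, adjusted p = 0.0022, and 1.42, adjusted p = 0.00126), and Ndufaf4 had 5.82, 6.06 and 5.48 in SMF, 2.52 and 4.0 in SC and 2.49, 1.73 and 2.94 in EC (0.69, adjusted p = 0.0218, and 1.02, adjusted p = 0.00197). Ndufaf5 had 7.07 to 8.48 in SMF, was listed at 0 in SC replicate 1 and at 1.71 in replicate 3, and had 2.03, 0.356 and 0 in EC. Ndufaf3 was lower in SMF than in EC, with 1.36, 1.58 and 0.798 in SMF and 2.97, 2.62 and 3.40 in EC (log2 difference -0.84, adjusted p = 0.00731), a call that was lost under each other scaling and turned to 0.080 under median-of-ratios scaling. Ndufaf2 had the highest mean of the 7 in every group (6.73, 4.34 and 13.4 in SMF, 10.7 and 6.30 in SC, 15.5, 10.3 and 13.1 in EC). It was not called on the deposited scale, as were Ndufaf6 and Ndufaf7. Under median-of-ratios scaling Ndufaf2 (1.27) and Ndufaf7 (0.71) were called higher in SMF than in SC, and Ndufaf7 also against EC (0.63). In other settings Ndufaf2 was called lower than in EC, at -0.77 in the TPM table and -1.10 without SMF replicate 3. Without SC replicate 1 the Ndufaf7 difference against SC was -0.84. Ndufaf6 had 0, 5.56 and 3.77 in SMF, 1.23 and 0 in SC and 0, 0.588 and 0 in EC, and Ndufaf7 stayed between 0.876 and 3.14 in all libraries.

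All 4 genes of complex II were higher in SMF than in SC and EC. Sdhb, the iron-sulfur subunit, had 49.0, 46.0 and 54.9 FPKM in SMF, 10.4 and 12.7 in SC and 8.31, 7.08 and 8.04 in EC (log2 difference 2.02, SE 0.16, adjusted p = 2.59e-05, and 2.53, SE 0.14, adjusted p = 2.75e-06). Sdha, the flavoprotein that oxidises succinate, had 60.4, 56.9 and 63.5 in SMF, 22.9 and 25.6 in SC and 23.4, 20.3 and 19.4 in EC (1.28, adjusted p = 0.000208, and 1.48, adjusted p = 4.06e-05). In the TPM table the first difference was 0.57 and was not called. Its values in SC and EC overlapped. Of the membrane anchors, Sdhd had 43.0, 41.6 and 42.5 in SMF, 13.5 and 14.4 in SC and 10.8, 9.77 and 9.33 in EC, and Sdhc had 11.05, 10.6 and 12.6 in SMF, 6.66 and 6.25 in SC and 4.03, 3.05 and 5.05 in EC.

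In complex III, 8 of 9 genes were higher in SMF than in SC and 9 of 9 higher than in EC. Uqcrb, a small subunit near the ubiquinone site, was the most abundant in fibres, with 145, 133 and 159 FPKM in SMF, 9.23 and 21.0 in SC and 21.7, 27.8 and 22.1 in EC (log2 difference 3.28, adjusted p = 5.95e-05, and 2.57, adjusted p = 9.57e-05). Uqcrfs1, the Rieske iron-sulfur protein, had 82.6, 72.8 and 93.5 in SMF, 23.2 and 23.1 in SC and 15.0, 14.7 and 10.5 in EC. Cyc1, the haem protein that reduces cytochrome c, had 48.0, 41.0 and 53.0 in SMF, 9.65 and 22.7 in SC and 4.83, 3.90 and 8.80 in EC. The core proteins Uqcrc1 and Uqcrc2 had 44.3 to 60.6 and 35.5 to 42.1 in SMF, 8.92 to 12.7 and 9.69 to 12.2 in SC, and 6.32 to 8.03 and 7.13 to 12.8 in EC.

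Uqcrh, the hinge protein between cytochrome c1 and cytochrome c, was the exception in complex III. It had 97.9, 96.9 and 93.7 FPKM in SMF, 71.4 and 69.2 in SC and 21.1, 46.7 and 30.1 in EC, and its log2 difference of 0.45 between SMF and SC did not pass (adjusted p = 0.217), although the libraries did not overlap. With SMF and SC alone in the fit, or under each of the other scalings, it was called higher (log2 0.45 to 2.02). Its span overlaps the predicted gene Gm12854 on the other strand, at 0 to 1.75 in SMF, 16.4 and 20.9 in SC and 10.2 to 17.8 in EC, whose part in the result was not tested. Cycs, the electron carrier cytochrome c itself, had 58.2, 47.3 and 55.4 in SMF, 10.6 and 8.62 in SC and 7.67, 4.67 and 7.75 in EC (2.36, SE 0.23, adjusted p = 6.79e-05, and 2.85, SE 0.21, adjusted p = 1e-05).

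Complex IV was the only complex with members lower in SMF than in SC: 12 of its 18 genes were higher and 6 lower. Against EC, 12 were higher, 5 lower and 1 not called. Of the 6 lower calls against SC, 5 belong to pairs of tissue forms, and Cox7a2l is the other. Cox6a2 (chr7:128205435-128206366, mm10) had 418, 404 and 411 FPKM in SMF, was listed at 0 in SC replicate 1, stood at 6.0 in SC replicate 3, and was at 0 in each EC library (higher in SMF, adjusted p = 5.15e-05 against SC and 7.71e-06 against EC). It was the most abundant of all 92 members in fibres. Its partner Cox6a1 (chr5:115345652-115348958) had 2.01, 2.68 and 1.87 in SMF, 35.2 and 47.4 in SC and 40.8, 27.4 and 35.9 in EC (log2 difference -3.72, SE 0.23, adjusted p = 8.06e-06, and -3.48, SE 0.20, adjusted p = 3.17e-06). Cox6a2 therefore made up 99.5% ± 0.113 of the pair in SMF (SD, n = 3), 0% and 11.2% in the 2 SC libraries and 0% in EC.

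Cox8b and Cox8a, which encode forms of the smallest subunit, showed the same exchange. Cox8b (chr7:140898942-140900446) had 231, 232 and 266 FPKM in SMF and was listed at 0 in both SC and all 3 EC libraries (higher in SMF, adjusted p = 3.14e-07 and 2.83e-08). Cox8a (chr19:7215158-7217616) had 4.96, 6.50 and 5.16 in SMF, 79.9 and 88.0 in SC and 44.7, 29.8 and 49.8 in EC (log2 difference -3.70, SE 0.24, adjusted p = 1.02e-05, and -2.67, SE 0.21, adjusted p = 1.65e-05). Cox8b made up 97.8% ± 0.427 of the pair in SMF (SD, n = 3) and 0% in SC and EC. The summed level of the pair was 249 ± 19.4 FPKM in SMF (SD, n = 3), 79.9 and 88.0 in SC and 41.5 ± 10.4 in EC (SD, n = 3). The lower calls of Cox6a1 and Cox8a in SMF were made in both comparisons under every setting tried.

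**Figure D3:**
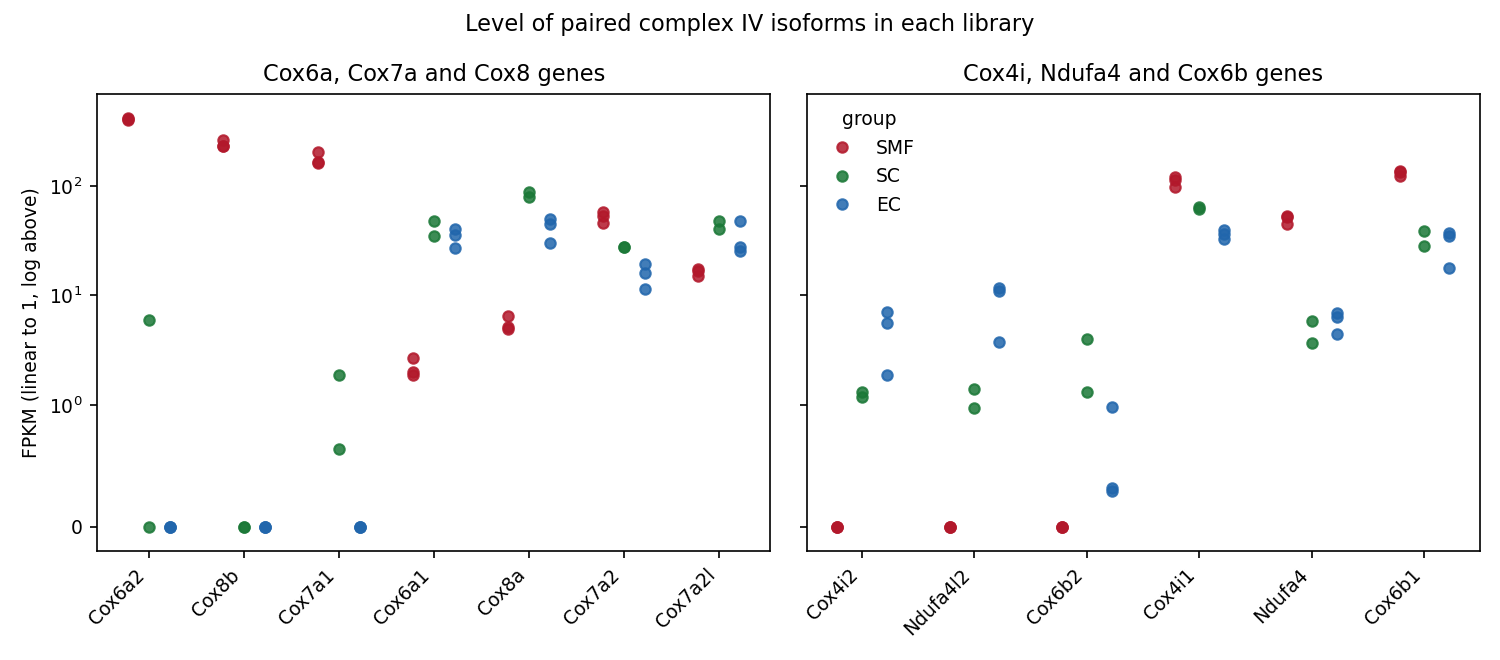
FPKM of the paired complex IV genes and Cox7a2l in each library (linear up to 1 and log above), with SMF, SC and EC from left to right at each gene. Cox6a2, Cox8b and Cox7a1 lie at 163 to 418 FPKM in SMF and at 0 to 6.0 in SC and EC, while Cox6a1 and Cox8a lie at 1.87 to 6.50 in SMF and at 27.4 to 88.0 in SC and EC.

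For Cox7a both forms were higher in fibres. Cox7a1 (chr7:30184171-30186030) had 165, 163 and 204 FPKM in SMF, 1.87 and 0.640 in SC, with a listed 0 in each of the 3 EC libraries (log2 difference 6.35, SE 0.24, adjusted p = 1.39e-06 against SC, and adjusted p = 1.51e-07 against EC). Cox7a2 (chr9:79755241-79771422) was also higher in SMF, with 53.4, 45.7 and 57.7 in SMF, 27.9 and 27.7 in SC and 11.4, 19.5 and 16.0 in EC (0.88, SE 0.23, adjusted p = 0.0103, and 1.70, SE 0.21, adjusted p = 0.000174). The first of these calls was lost without SC replicate 3 and in the TPM table. Cox7a1 made up 77.2% ± 1.44 of the pair in SMF (SD, n = 3), 6.30% and 2.26% in SC and 0% in EC. Thus 22.8% ± 1.44 of the pair was Cox7a2 in SMF, against 0.530% ± 0.113 Cox6a1 and 2.24% ± 0.427 Cox8a in their pairs (SD, n = 3 each). Exact two-sided permutation tests of the isoform shares gave adjusted p of 0.3 or more over 27 tests, the designs allowing no raw p under 0.1 for SMF against EC and 0.2 against SC.

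The SC libraries also held transcripts of fibre genes, whose part in their Cox6a2 and Cox7a1 values was not tested. All 10 fast fibre markers were higher in SMF than in SC and EC, and 8 of 10 were higher in SC than in EC. Over all genes tested, the shares called higher in these comparisons were 8.57%, 10.8% and 21.2%. Acta1, the actin of skeletal muscle, had 5843, 5609 and 6771 FPKM in SMF, 108 and 164 in SC and 11.7, 5.06 and 10.9 in EC. SC replicate 3, with the higher fibre sum (314, against 203 in replicate 1), was the one with Cox6a2 above 0, while Cox7a1 was higher in replicate 1.

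**Figure D4:**
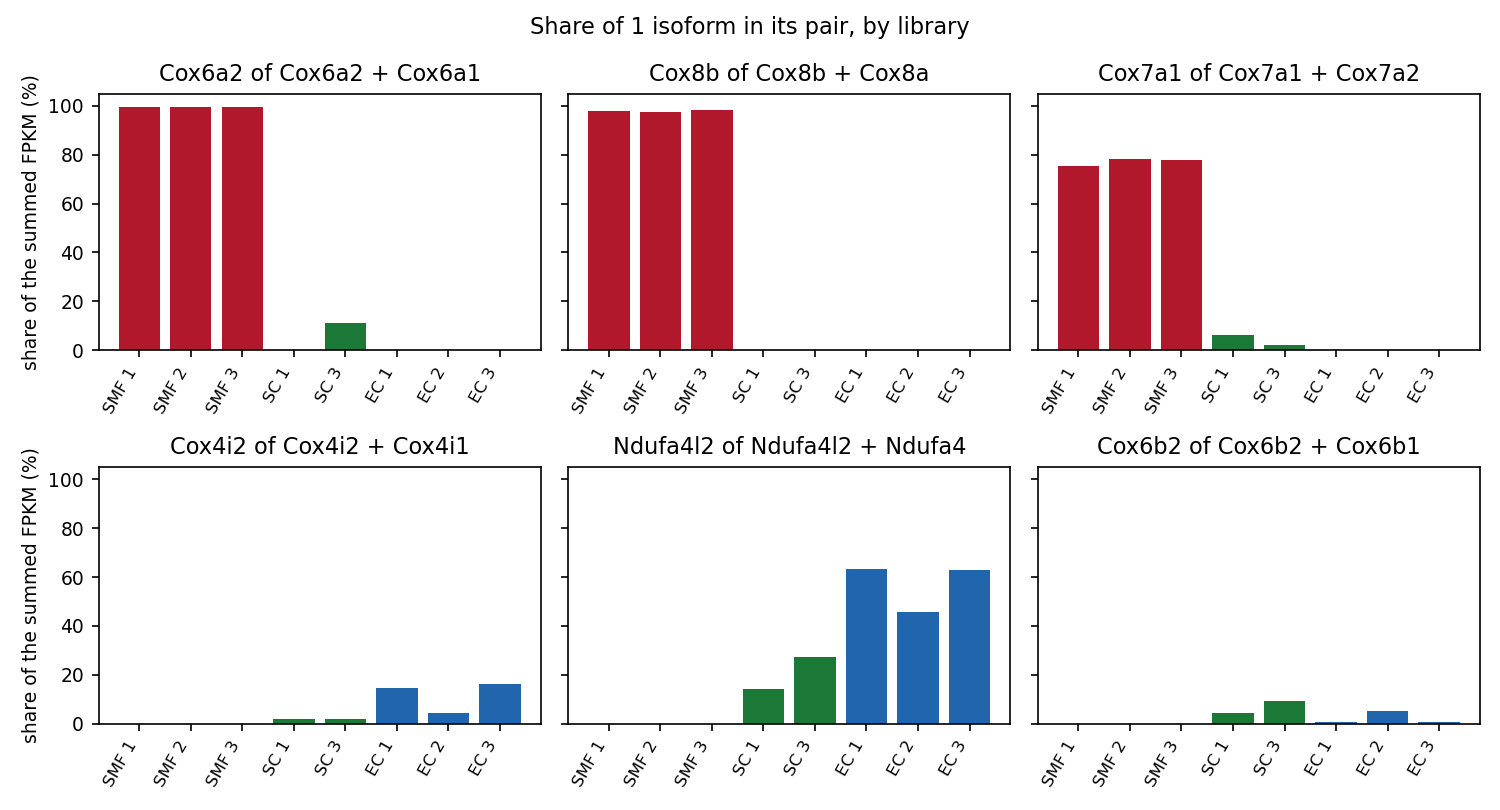
Share of the first gene of each pair in the summed FPKM of the pair (percent), as 1 bar for each library, SMF at the left, then SC and EC. Cox6a2, Cox8b and Cox7a1 take 75.5% to 99.5% of their pairs in SMF and at most 11.2% in SC and EC, whereas Cox4i2 and Ndufa4l2 take 4.46% to 63.5% in EC and 0% in SMF.

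Another set of paired genes ran the other way and was highest in EC. Ndufa4l2, a relative of Ndufa4 known as a target of hypoxia signalling, was listed at 0 in the 3 SMF libraries, stood at 0.972 and 1.39 FPKM in SC and at 10.9, 3.75 and 11.7 in EC (lower in SMF than in EC, adjusted p = 0.000118). Ndufa4, the common form, had 52.3, 45.3 and 52.9 in SMF, 5.90 and 3.68 in SC and 6.30, 4.42 and 6.92 in EC (log2 difference 3.17, SE 0.23, adjusted p = 1.83e-05, and 2.91, SE 0.21, adjusted p = 9.36e-06). Ndufa4l2 therefore took 63.5%, 45.9% and 62.8% of the pair in EC, 14.1% and 27.4% in SC and 0% in SMF. Cox4i2, a form of subunit 4 known from lung and from hypoxic cells, was listed at 0 in SMF, had 1.31 and 1.18 in SC and 5.59, 1.86 and 7.08 in EC (lower in SMF than in EC, adjusted p = 0.00051). The common Cox4i1 had 114, 97.3 and 121 in SMF, 63.9 and 62.1 in SC and 32.8, 39.9 and 36.3 in EC, and Cox4i2 took 14.6%, 4.46% and 16.3% of the pair in EC.

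Both Ndufa4l2 and Cox4i2 were lowest in EC replicate 2, and so were pericyte and smooth muscle markers, whose part in the result was not tested. Over 9 such markers the sum was 29.2 to 30.6 FPKM in SMF, 264 and 326 in SC and 616, 302 and 747 in EC. Rgs5, a pericyte marker, had 2.82 to 3.98 in SMF, 11.7 and 4.81 in SC and 392, 153 and 473 in EC. Kcnj8 was listed at 0 in SMF and had 1.57 and 0.623 in SC and 23.7, 3.52 and 23.6 in EC. The summed levels of 5 erythroid, 6 immune and 6 fibro-adipogenic markers were also lowest in EC replicate 2 among the EC libraries (270, 13.7 and 17.6 FPKM, against 575 to 582, 54.2 to 74.4 and 75.9 to 83.5 in the other EC libraries). Of the 9 summed markers of pericytes and smooth muscle, 8 passed as lower in SMF against EC and 1 was not called. In SC, 5 were lower and 2 higher than in EC. Over all genes tested, 55.5% were lower in SMF than in EC, while 16.4% were lower and 21.2% higher in SC than in EC. The lower calls of both genes in SMF against SC (adjusted p = 0.032 for Cox4i2 and 0.0383 for Ndufa4l2) were lost under each other scaling and on leaving out any single SMF or SC library.

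The remaining members of complex IV followed the majority, with the exception of Cox6b2 and Cox7a2l. Cox7b, an accessory subunit, had 280, 265 and 314 FPKM in SMF, 34.9 and 28.9 in SC and 19.2, 16.5 and 20.1 in EC (log2 difference 3.13, SE 0.18, adjusted p = 6.19e-06, and 3.87, SE 0.16, adjusted p = 5.59e-07). Cox6b1, which faces the intermembrane space, had 134, 125 and 138 in SMF, 28.3 and 38.5 in SC and 35.0, 17.8 and 37.2 in EC. Its testis form Cox6b2 was listed at 0 in SMF and had 1.33 and 3.99 in SC and 0.289, 0.987 and 0.317 in EC (lower in SMF than in SC, adjusted p = 0.00247, and not called against EC, adjusted p = 0.126). Cox5a had 88.3 to 107 in SMF, 4.84 and 14.0 in SC and 6.20 to 9.29 in EC, and Cox5b had 70.3 to 100.05 in SMF, 14.6 and 23.1 in SC and 6.30 to 14.8 in EC. Cox7a2l, which takes part in joining complexes III and IV into supercomplexes, had 15.1, 17.4 and 16.8 in SMF, 47.9 and 40.9 in SC and 27.6, 48.3 and 25.6 in EC. On the deposited scale it was lower in SMF (log2 difference -1.38, adjusted p = 0.00266, and -0.94, adjusted p = 0.00945), but no other scaling kept the call, and under median-of-ratios scaling the difference was 0.16 against SC and 0.41 against EC.

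In complex V, 14 of 15 genes were higher in SMF than in SC and 14 of 15 higher than in EC. The most abundant were the subunits of the catalytic head. Atp5a1 (alpha) had 207, 171 and 234 FPKM in SMF, 79.3 and 90.8 in SC and 46.8, 40.1 and 49.0 in EC. Atp5b (beta) had 164, 148 and 181 in SMF, 70.9 and 79.5 in SC and 45.9, 33.3 and 40.6 in EC (log2 difference 1.12, adjusted p = 0.00148, and 2.02, adjusted p = 2.71e-05). Atp5c1 (gamma, the central shaft) had 160, 142 and 175 in SMF, 34.5 and 39.7 in SC and 27.4, 28.4 and 23.4 in EC (2.07, adjusted p = 3.63e-05, and 2.55, adjusted p = 4.41e-06). Atp5k, the small subunit e of the membrane part, had 140, 145 and 157 in SMF, 27.9 and 27.3 in SC and 25.2, 13.5 and 24.1 in EC.

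The ring of subunit c is encoded by Atp5g1, Atp5g2 and Atp5g3, whose mature proteins are the same. Atp5g3 had 26.4, 24.8 and 27.6 FPKM in SMF, 14.5 and 9.42 in SC and 4.2, 5.56 and 4.75 in EC (log2 difference 1.1, adjusted p = 0.00186, and 2.23, adjusted p = 1.85e-05). Atp5g1 had 10.5, 4.62 and 7.46 in SMF, 0.748 and 1.604 in SC and 0.619, 0.520 and 0.818 in EC. Atp5g2 had 15.4, 13.0 and 11.3 in SMF, 10.2 and 11.5 in SC and 1.20, 5.24 and 1.44 in EC, so that SMF and SC overlapped and the difference did not pass (log2 0.25, adjusted p = 0.611). Under median-of-ratios and upper-quartile scaling it did pass (1.73 and 1.42). Atp5g1 took 15.7% ± 4.60 of the summed level of the trio in SMF (SD, n = 3), 2.94% and 7.12% in SC and 8.85% ± 3.75 in EC (SD, n = 3).

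Atp5l, subunit g, was the other member of complex V not called. It had 45.7, 40.2 and 135 FPKM in SMF, 0 and 4.57 in SC and 3.34, 23.7 and 30.5 in EC (log2 difference 4.76, adjusted p = 0.00449 against SC, a call lost without SC replicate 1, and 2.09, adjusted p = 0.0791 against EC). Against EC it was called higher under each other scaling (2.75 to 3.43) and with the replicate block. Copies of Atp5l and Atp5k that carry pseudogene names were listed as well and may share reads with them. Atp5s had 2.06, 2.25 and 1.35 in SMF, 1.35 and 2.37 in SC and 0.725, 1.08 and 0 in EC, and Atp5sl stayed between 2.15 and 4.34 in all libraries. Of these 2 genes neither was called against SC, and Atp5s was called higher against EC (adjusted p = 0.0283).

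Between SC and EC the members differed less. Of 92, 26 passed as higher in SC and 4 as lower, which left 62 not called, while 21.2% of all genes tested were higher in SC and 16.4% lower. The median log2 difference of the members was 0.46, beside 0.11 over all genes. Groups did not overlap for 53 members, again without a counted share over all genes tested. The number of higher calls was 26 under upper-quartile scaling (with 4 lower). It fell to 12 under median-of-ratios scaling (with 5 lower) and 5 after scaling without the most abundant genes (with 5 lower). Over all 16700 genes tested, the higher calls then numbered 3272, 2554 and 2100 and the lower 2453, 2837 and 3278. On the deposited scale they numbered 3543 and 2745. Without SC replicate 3 or 1 the median log2 difference of the members was 0.39 or 0.58. The 3 genes called higher in SC under every setting were Atp5d, Atp5g3 and Cox7a1, and Ndufa8 was called lower under every setting. The call of Cox7a1 rests on low values, 1.87 and 0.640 FPKM in SC and a listed 0 in each EC library. A single fragment on 1 kb is worth about 0.320 and 0.360 FPKM in the SC libraries.

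Complex V gave 8 of the 26 higher calls from 15 genes, complex I gave 6 from 36 genes and complex IV 6 from 18. Complexes II and III gave 3 each, from 4 and 9 genes. Over all genes tested, 21.2% were higher in SC. Atp5d, subunit delta of the ATP synthase head, had 23.1 and 20.4 FPKM in SC and 10.1, 6.49 and 11.04 in EC (log2 difference 1.18, SE 0.23, adjusted p = 0.005). Atp5g3 differed by 1.13 (SE 0.20, adjusted p = 0.00349). Atp5g2 had the largest difference (1.88, SE 0.42, adjusted p = 0.0098), a call lost without either SC library. Cyc1 differed by 1.28 (adjusted p = 0.0361) and Atp5h, subunit d, by 1.24 (adjusted p = 0.0496), with 21.7 and 25.7 in SC and 4.35, 13.1 and 13.9 in EC, and both calls were lost under several settings. Ndufa8, an accessory subunit of complex I, was lower in SC, with 4.37 and 7.51 in SC and 26.6, 21.99 and 33.5 in EC (-2.05, SE 0.30, adjusted p = 0.00129). In SMF it had 62.2, 47.3 and 79.0, so that the order for this gene was SMF, EC, SC. Atp5j, coupling factor 6, was lower too (14.8 and 15.0 in SC, 27.9, 22.4 and 29.0 in EC, -0.78, adjusted p = 0.00842), and its span overlaps Gabpa on the other strand, at 11.4 and 10.0 in SC and 11.3 to 12.5 in EC. The other lower calls were Ndufa4l2 (-2.05, adjusted p = 0.00523) and Cox4i2 (-1.25, adjusted p = 0.0395), both lost on leaving out single libraries.

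The rank of the members by level was closer between SC and EC than between either and SMF. Over the 92 group means the Spearman coefficient was 0.864 for SC and EC, 0.577 for SMF and SC and 0.551 for SMF and EC. Outside the isoform families (76 members) it was 0.854, 0.772 and 0.787 in the same order. These are descriptions across genes, which share libraries and lengths. Of the 92 members, 53 were higher in SMF than in both cell types without a call between SC and EC, and 22 were higher in SMF than in SC and EC and higher in SC than in EC.

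Genes around the complexes were counted for comparison. In the tricarboxylic acid cycle, which supplies NADH and succinate, 11 of 13 genes were higher in SMF than in SC and 12 of 13 higher than in EC. The others were not called, and over all genes tested 8.57% and 10.8% were higher. Idh3a, the catalytic subunit of isocitrate dehydrogenase, had 137 ± 4.72 FPKM in SMF (SD, n = 3), 11.7 and 17.9 in SC and 3.46 ± 1.11 in EC (SD, n = 3) (log2 difference 3.15, adjusted p = 2.69e-05, and 4.98, adjusted p = 8.91e-07). Between SC and EC, 7 of 13 were higher in SC and 6 not called, beside 21.2% higher over all genes tested, and under the other scalings 1 to 9 were higher.

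The carriers that exchange ATP and ADP across the inner membrane resembled the Cox6a and Cox8 pairs in fibres alone. In SC and EC, unlike in those pairs, both carrier genes stood at similar levels. Slc25a4, the heart and muscle form, had 549, 499 and 556 FPKM in SMF, 50.0 and 64.2 in SC and 31.5, 32.6 and 27.5 in EC (log2 difference 3.21, SE 0.19, adjusted p = 6.87e-06, and 4.09, SE 0.17, adjusted p = 5.61e-07). Slc25a5, the form of dividing and other cells, had 5.95, 3.94 and 5.37 in SMF, 59.1 and 58.0 in SC and 25.4, 25.8 and 30.0 in EC (-3.31, SE 0.18, adjusted p = 5.88e-06, and -2.22, SE 0.16, adjusted p = 1.15e-05). Slc25a5 was also called lower in SMF under each other scaling. Of 6 tested carriers and channels, 4 were higher and 1 lower in SMF than in SC, and 5 higher and 1 lower than in EC. Over all genes tested, 8.57% and 10.8% were higher and 56.5% and 55.5% lower. Vdac1, the outer membrane channel, stood at 153 ± 11.5 in SMF (SD, n = 3), 14.8 and 21.4 in SC and 8.12 ± 1.13 in EC (SD, n = 3).

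**Figure D5:**
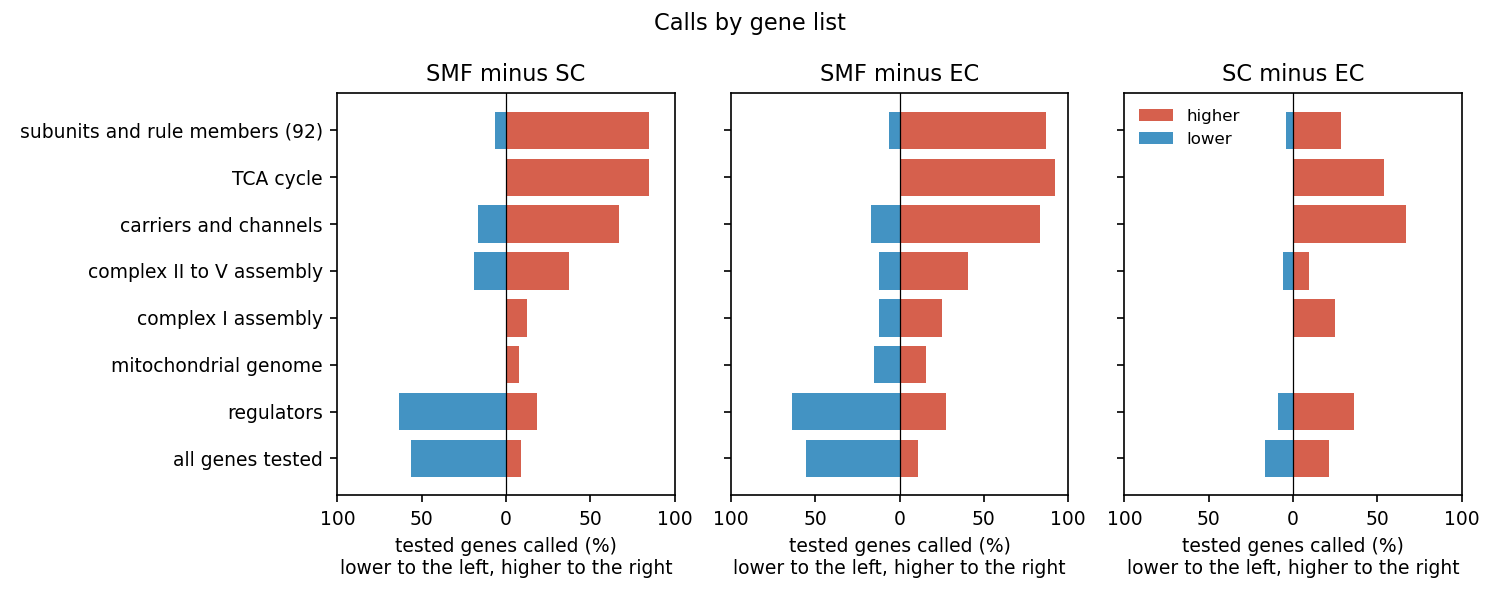
Share of the tested genes of each list called higher (red, to the right) or lower (blue, to the left), in percent, for the 3 comparisons. In the first 2 panels most of the 92 members and of the tricarboxylic acid cycle genes lie to the right, the assembly factors are mixed, and most genes tested and most regulators lie to the left on the deposited scale.

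Assembly factors outside the name rule gave calls in both directions on the deposited scale. Over all genes tested, 8.57% were higher and 56.5% lower in SMF than in SC, and 10.8% and 55.5% than in EC. Of 32 tested factors of complexes II to V, 12 were higher and 6 lower in SMF than in SC, and 13 higher and 4 lower than in EC. Under the other scalings 20 to 23 were higher and 0 lower against SC, and 20 to 27 higher and at most 1 lower against EC. Higher calls over all 16700 genes tested then numbered 2611 to 3735 against SC and 2697 to 4116 against EC. Uqcc2, a complex III factor, had 65.3, 72.6 and 79.4 FPKM in SMF, 4.88 and 15.6 in SC and 8.59, 6.77 and 5.22 in EC (log2 difference 2.89, adjusted p = 0.000464, and 3.24, adjusted p = 0.000115). Atpif1, the inhibitor of ATP synthase, was lower in SMF on the deposited scale, with 3.82, 5.32 and 7.71 in SMF, 15.0 and 19.8 in SC and 16.0, 11.6 and 13.0 in EC (-1.51, adjusted p = 0.00167, and -1.17, adjusted p = 0.00328), and both calls were lost under each other scaling (-0.56 to -0.074 against SC and -0.56 to 0.090 against EC). Of 8 further complex I assembly genes, 1 (Ecsit) was higher in SMF than in SC and 2 (Ecsit and Timmdc1) were higher than in EC, with Foxred1 lower. Under the other scalings 4 to 7 of the 8 were higher against SC and 7 against EC, and the Foxred1 call was lost.

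The mitochondrial genome encodes 13 further subunits, which were counted apart. On the deposited scale 1 was higher in SMF than in SC (mt-Nd1) and 12 were not called, while against EC 2 were higher (mt-Nd1 and mt-Cytb) and 2 lower (mt-Atp6 and mt-Co2). Under the other scalings 7 were higher against SC and 5 to 7 against EC, with none lower. Higher calls over all genes tested were 8.57% against SC and 10.8% against EC on the deposited scale. Under the other scalings they numbered 2611 to 3735 and 2697 to 4116 of 16700. The sum of the 13 subunits was 38089, 34731 and 31080 FPKM in SMF, 20056 and 26894 in SC and 23070, 23872 and 26493 in EC. The ratio of this sum to that of the 92 nuclear members, which does not depend on the scaling, was 6.69, 6.43 and 4.90 in SMF, 14.1 and 16.9 in SC and 21.0, 23.5 and 23.3 in EC, with no overlap between the groups.

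Regulators of respiratory genes differed in direction. Ppargc1a, the coactivator known for driving mitochondrial genes in muscle, had 6.04, 5.41 and 5.86 FPKM in SMF, 1.25 and 1.1 in SC and 0.514, 0.0996 and 0.223 in EC (log2 difference 1.64, adjusted p = 0.000104, and 2.42, adjusted p = 5.21e-06). Its partner receptor Esrra was higher in SMF too (1.11, adjusted p = 0.0139, and 1.00, adjusted p = 0.013), with the call against SC lost without SC replicate 1 (0.62). On the deposited scale 7 of 11 tested regulators were lower in SMF than in SC and 7 lower than in EC, near the background of 56.5% and 55.5% over all genes tested, while 2 and 3 were higher. Under the other scalings 3 to 6 were lower and 4 to 5 higher against SC, and 6 lower and 4 higher against EC. Among them Yy1 had 3.61, 3.69 and 4.10 in SMF, 20.1 and 17.4 in SC and 18.2, 18.2 and 18.7 in EC (-2.04, adjusted p = 1.23e-05, and -2.01, adjusted p = 3.95e-06). Hif1a, the oxygen-regulated factor, had 3.77, 2.28 and 3.40 in SMF, 17.4 and 15.0 in SC and 24.3, 56.5 and 27.3 in EC, and its relative Epas1 had 6.53 to 7.44 in SMF, 8.65 and 4.62 in SC and 349, 321 and 356 in EC.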

How the data were processed

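RNA sequencing values of 8 libraries (3 SMF, 2 SC, 3 EC) were grouped by sample title. Per the labels' protocols, RNA was reverse transcribed with random primers in a stranded kit that cleaves ribosomal cDNA, and 1 sample, not named, missed the RNA quality of the others. Per the submitters' processing notes, FastQC, Trimmomatic, HISAT2, StringTie and bedtools were used with build mm10. Versions and settings are not named, and use of strand is not given in the sources used here. Per the file headers, the authors deposited FPKM for 36048 genes, a table of TPM for 46435 loci with the authors' mean TPM and specificity score (not used here), and FPKM and coverage (a signal) for 89871 transcripts, which served for depth alone because the table holds part of the transcripts of many genes. The number of value columns from other samples was 0.

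The planned count test did not apply, because FPKM are not counts. As planned for that case, limma 3.58.1 (R 4.3.3) was fitted with its trend option to log2(FPKM + 1), 1 mean for each group, no covariate, all 8 libraries sharing the spread, two-sided, Benjamini-Hochberg adjusted over the 16700 genes that reached 1 FPKM in 2 or more libraries, called under 0.05. This scale understates changes of low genes. Every adjusted p of a gene comes from limma. Sums and isoform shares were compared by exact permutation over libraries (scipy 1.17.1, Python 3.11.15). The code of the fit was also run on simulated, independent normal values with equal group means for most genes. Such values are unlike these libraries, so that run does not bear on the calls. Alternatives were median-of-ratios scaling, upper-quartile scaling, scaling that leaves out the top 50 genes of every group, a pseudocount of 0.1, no filter, an FPKM minimum of 5, no trend, only the groups compared, the TPM table (89 members found), a replicate block and leaving out each library.

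The members and gene lists were chosen with earlier results of these data known. Named genes are members of the isoform families, the 3 with the highest mean in each complex, the 5 largest called differences in each direction, members not called or against the majority where 10 or fewer, and up to 3 called genes for each direction of each other list. The other members were named after their values were seen, to cover each complex, and the values of some single genes are not reported here. Symbols of all 92 members were matched to RefSeq GRCm38.p6 (mm10) for coordinates, and 73 of them had a promoter there.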

Additional observations from a re-analysis of the deposited data

How the results depend on the processing

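Several differences changed sign with the scaling. Median-of-ratios scaling turned the log2 difference SMF minus SC to 0.16 for Cox7a2l, 1.27 for Ndufaf2, 0.60 for Ndufaf3, 0.71 for Ndufaf7, 0.37 for Pet117 and 0.71 for Surf1, and SMF minus EC to 0.95 for Atp5sl, 0.41 for Cox7a2l, 0.56 for Ndufaf2, 0.080 for Ndufaf3, 0.63 for Ndufaf7, 0.090 for Atpif1, 0.39 for Pet117 and 0.61 for Surf1. Upper-quartile scaling turned SMF minus SC to 0.97 for Ndufaf2, 0.39 for Ndufaf3, 0.50 for Ndufaf7, 0.093 for Pet117 and 0.43 for Surf1, and SMF minus EC to 0.83 for Atp5sl, 0.26 for Cox7a2l, 0.42 for Ndufaf2, 0.52 for Ndufaf7, 0.26 for Pet117 and 0.48 for Surf1. Scaling without the most abundant genes turned SMF minus SC to 0.79 for Ndufaf2, 0.25 for Ndufaf3, 0.34 for Ndufaf7 and 0.26 for Surf1, SMF minus EC to 0.40 for Atp5sl, 0.16 for Ndufaf7 and 0.0071 for Surf1, and the complex I sum of SC minus EC to -0.030. The TPM table gave -0.069 for Atp5s (SMF minus SC). Leaving out 1 library put SMF minus SC between -0.24 and 0.28 for Atp5s, -0.52 and 0.20 for Ndufaf2 and -0.84 and 0.30 for Ndufaf7, and SMF minus EC between -0.29 and 0.088 for Atp5sl. The cause of these changes was not tested. Members lower in SMF than in SC numbered 3 under each of these 3 scalings, against 6 on the deposited scale. Members higher in SC than in EC numbered 12 with median-of-ratios scaling, 5 without the most abundant genes, 17 in the TPM table and 13 with only the groups compared, against 26, and 9 to 24 with 1 library left out, where the lower ones numbered 2 to 6. With TPM in place of FPKM, 68 of 89 members were higher, 7 lower and 14 not called for SMF minus SC. With 1 library left out, the members higher in SMF numbered 69 to 78 against SC and 78 to 80 against EC.

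Deviations of same-numbered libraries from their group means correlated weakly (-0.058 to 0.091). With 2 SC libraries these deviations mirror each other, so the check cannot decide whether the numbers pair the samples. With the replicate block, 78 members were higher and 4 lower in SMF than in SC, 81 and 6 against EC, and 19 higher and 5 lower in SC than in EC, while the SMF minus SC difference was -0.13 for Atp5s and 0.098 for Ndufaf2. Over all settings, 334 counts, sums and shares were kept (a count within 1.5 times, a sum or share in its direction). Another 10 counts moved further and 1 sum changed sign. The exact tests of sums and shares cannot reach 0.05 here, so their side of that threshold was fixed in advance. Of the single-gene differences, 2805 kept their direction and their side of the threshold. A further 271 single-gene calls were lost, 25 gained and 42 differences changed sign. With no counts deposited, the counting error of single values is known only through the worth of 1 fragment. With 2 SC libraries, no exact test against SC can reach 0.05.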

Other observations

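The 4 pseudogene rows left out by the name rule were measured as well. Atp5k-ps2 had 29.6, 38.6 and 39.5 FPKM in SMF, 5.13 and 5.46 in SC and 10.7, 8.06 and 7.88 in EC. Atp5k itself was likewise highest in SMF, at 140, 145 and 157 in SMF, 27.9 and 27.3 in SC and 25.2, 13.5 and 24.1 in EC. Atp5l2-ps had 16.4, 16.3 and 22.9 in SMF, 6.99 and 4.84 in SC and 3.56, 3.76 and 5.82 in EC. The other 2 rows, Atp5l-ps1 and Atp5l-ps2, stayed at or under 2.90 in every library. Reads shared between such copies and their parents cannot be told apart here.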
